A study of Mus musculus with 6 samples.

Results

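Expression of 10 Bcl2 family genes was examined in alveolar macrophages, the phagocytes of the air spaces, from lungs instilled with bleomycin or saline. The genes were taken from a list of names, and all 10 were found among the 22962 genes measured. Of these, 5 encode proteins that protect cells from death (Bcl2, Bcl2l1, Mcl1, Bcl2a1b and Bcl2a1d) and 5 encode proteins that promote it (Bcl2l11, Bax, Bak1, Bbc3 and Pmaip1). No measured value entered the choice of names, but the list was drawn up with earlier results of these data known.

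The macrophages came from C57BL/6 mice whose tracheas had received saline (replicates 1, 2 and 3) or bleomycin, a DNA-breaking drug that scars the lung (replicates 1, 2 and 5). Lungs were lavaged 2 weeks later in both groups, red cells were lysed, and cells that adhered to plastic within 30 min and stayed through washing were lysed for RNA. The groups therefore share the strain, the route, the interval and the plating step, and the mice carry no stated allele or transgene. The age and sex of the mice, and whether each library came from a separate mouse, are not given, so p-values reflect only how these libraries spread, and that spread may be technical.

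Mitochondrial apoptosis is set by binding between these proteins. Bax and Bak1 are the effectors, which assemble into pores in the outer mitochondrial membrane and let out cytochrome c. The survival proteins hold them in check through a groove that binds the short BH3 helix of a death-promoting partner. The BH3-only proteins Bcl2l11 (Bim), Bbc3 (Puma) and Pmaip1 (Noxa) carry little else of the fold, and they fill that groove or engage the effectors directly. Resident alveolar macrophages are long-lived cells, and survival of macrophages during lung fibrosis is one reason the family is studied in this tissue.

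The stretch that encodes the BH3 helix is shown for 7 members, of both roles, because the proteins bind each other through this helix and the groove. The 48 bases below are read 5′ to 3′ from the coding sequences of GENCODE M21 on GRCm38. Capitals mark the codon of the conserved leucine and the pair of codons for glycine and aspartate (alanine and aspartate in Bbc3) that define the motif searched.
Bcl2: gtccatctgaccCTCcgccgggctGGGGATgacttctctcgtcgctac
Bcl2l1: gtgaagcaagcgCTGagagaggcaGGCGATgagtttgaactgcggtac
Mcl1: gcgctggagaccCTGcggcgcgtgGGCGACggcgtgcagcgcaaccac
Bcl2l11: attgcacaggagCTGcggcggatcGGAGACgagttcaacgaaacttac
Bax: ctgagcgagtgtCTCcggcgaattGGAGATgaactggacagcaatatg
Bak1: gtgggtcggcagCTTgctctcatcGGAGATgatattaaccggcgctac
Bbc3: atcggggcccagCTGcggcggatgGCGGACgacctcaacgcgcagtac
The leucine was codon 94 of 236 in Bcl2, 90 of 233 in Bcl2l1 and 194 of 331 in Mcl1. It was codon 63 of 192 in Bax and 76 of 209 in Bak1, and it lay late in the BH3-only transcripts, at codon 150 of 196 in Bcl2l11 and 141 of 193 in Bbc3. Each of these 7 genes had a single match, and the Bcl2a1 genes had none. The sequence of Pmaip1 is not shown here.

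Between 27654799 and 37147983 reads per library were recovered from the deposited values, which makes 3 reads of a gene worth 2.59 to 3.30. Values below are normalized read counts, and differences are bleomycin minus saline on the log2(value + 1) scale. Of 13512 genes tested with limma, 1319 (9.76%) were called higher and 527 (3.90%) lower after bleomycin at a Benjamini-Hochberg adjusted p under 0.05, or 13.7% in all. The groups did not overlap for 30.8% of tested genes. Saline replicate 2 stood apart from the other saline libraries in Egr1 (11719, against 1228 and 1881) and Marco (41642, against 9576 and 19237). Resident alveolar macrophage markers, 9 of 9 measured, summed to 581610 to 739760 in saline and 344320 to 457220 after bleomycin, with 5 lower, Siglecf among them. Most of this sum was Chil3, at 311298 to 476558 in saline and 179106 to 264167 after bleomycin. The other 4, Itgax (0.07), Mrc1 (-0.14), Pparg (-0.29) and Marco (-1.12), were not called.

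Among the 10 members, 3 rose and 0 fell. Bcl2 rose most, by 6.46-fold from a very low level, followed by Bbc3 at 1.87-fold and then Bcl2l1, whose log2 difference was 0.59. The other 7, among them both effectors and the survival gene with the most reads, did not pass the threshold. The share called was 30.0%, beside 13.7% of all tested genes, and the share called higher was likewise 3 of 10, beside 9.76%. The groups did not overlap in 4 of 10 members, beside 30.8% of tested genes. On the recovered reads edgeR also called 3 members higher and 0 lower (9.64% and 3.83% of all genes), as did DESeq2 (11.4% and 5.69% of all genes). At an unadjusted p under 0.05 limma had 4 members, beside 25.9% of tested genes. The median difference of the members was 0.22, against -0.01 over all tested genes. All 10 passed the filter on low values. These are bulk samples, in which a different mix of cells and a different RNA content per cell cannot be told apart.

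**Figure D1:**
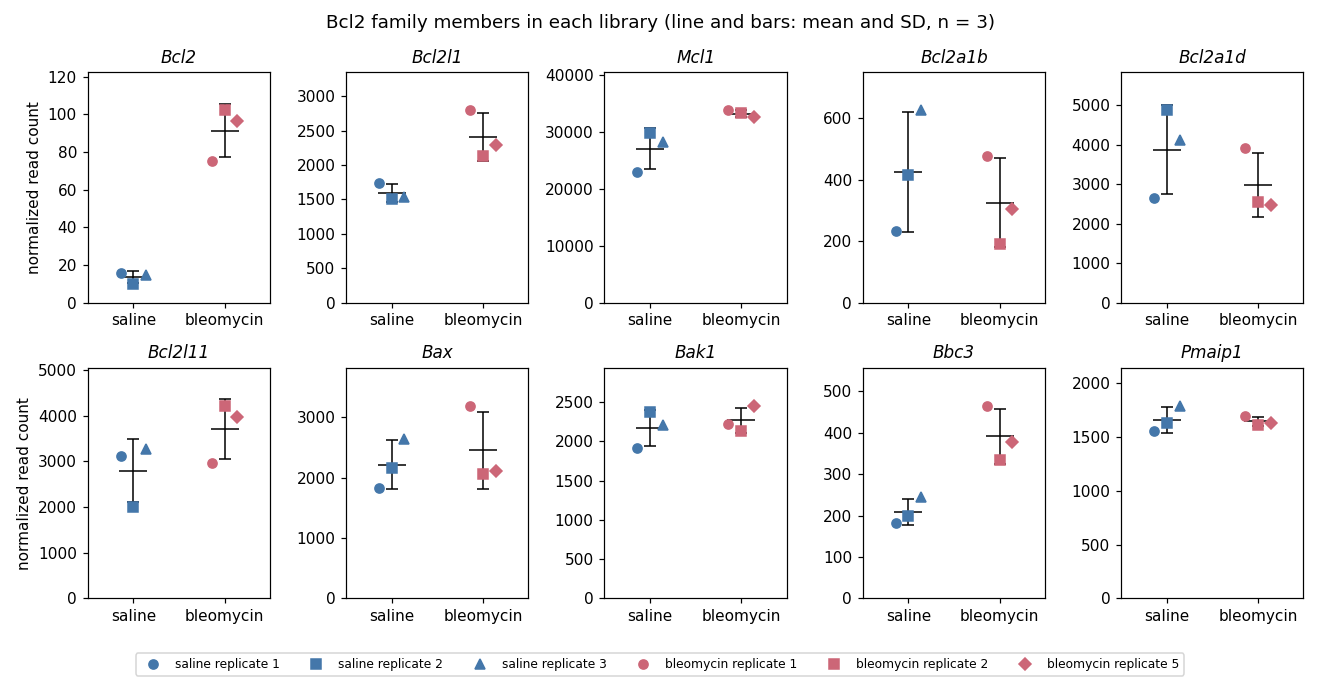
Each panel plots the normalized read count (linear axis from 0) of a Bcl2 family gene in the 3 saline and 3 bleomycin libraries, with marker shapes for replicate numbers and a line and bars for the mean and SD. The groups are separate in Bcl2, Bcl2l1, Mcl1 and Bbc3, and Bcl2 stays at or below 15.7 in saline and at or above 75.5 after bleomycin.

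**Figure D2:**
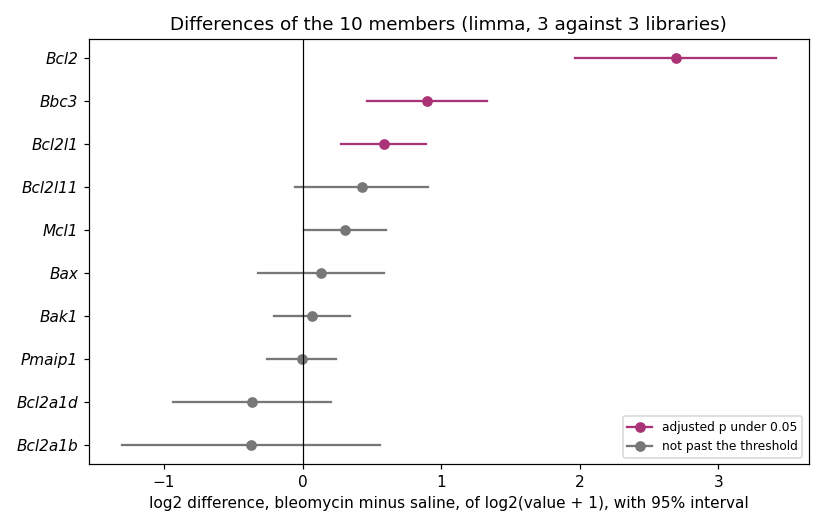
Points are the difference of each of the 10 genes on the log2(value + 1) scale, bleomycin minus saline, and lines are 95% confidence intervals from limma, coloured by whether the adjusted p was under 0.05. Bcl2 lies at 2.69, Bbc3 at 0.90 and Bcl2l1 at 0.59, and the intervals of Bcl2a1b, Bcl2a1d, Bcl2l11, Bax, Bak1 and Pmaip1 span 0.

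Bcl2, the founding survival gene of the family (chr1:106538178-106714274, minus strand, GRCm38), was at 15.7, 9.78 and 14.8 in saline replicates 1, 2 and 3. After bleomycin it was at 75.5, 102 and 96.5 in replicates 1, 2 and 5. Every bleomycin library was thus far above every saline library. The mean went from 13.4 ± 3.20 to 91.4 ± 14.1 (SD, n = 3 each), a log2 difference of 2.69 ± 0.32 (SE) with a 95% interval of 1.97 to 3.42. The limma adjusted p was 0.00105, and Bcl2 was called in 19 of 19 alternative settings. These are not all separate checks. Summing the Bcl2a1 copies left the Bcl2 result at 2.69 and 0.00105, and at the minimum of 50 only its bleomycin libraries reached the minimum. The saline values rest on 16, 9 and 14 reads. Its exons share 558 bases with the antisense gene D630008O14Rik, and the strand setting of the counting is not given.

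Bcl2l1 encodes Bcl-xL, a survival protein of the mitochondrial membrane, and, by another splice form, the death-promoting Bcl-xS (chr2:152780668-152831728, minus strand). The saline libraries held 1742, 1508 and 1533, and the bleomycin libraries 2793, 2126 and 2293, so the groups were separate with bleomycin replicate 1 the highest. The mean was 1595 ± 129 in saline and 2404 ± 347 after bleomycin. The difference was 0.59 ± 0.13 (95% interval 0.28 to 0.89) with a limma adjusted p of 0.0221. It was called in 13 of 19 alternative settings, and its adjusted p was 0.068 without saline replicate 2, 0.0737 without saline replicate 3, 0.0727 without bleomycin replicate 5 and 0.263 with the replicate number as a block. Only replicates 1 and 2, whose numbers occur in both groups, inform the difference in the fit with the block. Counts per gene do not separate the splice forms.

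Mcl1, a short-lived survival protein that binds Bak1, Bcl2l11 and Pmaip1 (chr3:95658788-95663176, plus strand), was at 23062, 29843 and 28344 in saline. It was at 33836, 33314 and 32653 after bleomycin, above every saline library. The means were 27083 ± 3562 and 33268 ± 593. The difference of 0.31 ± 0.13 (95% interval 0.01 to 0.60) had a limma adjusted p of 0.18 and was called in 0 of 19 alternative settings. The bleomycin libraries lay within a factor of 1.04 of each other, compared with 1.29 in saline.

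Bcl2a1b and Bcl2a1d belong to a cluster of mouse genes for A1 (Bfl-1), a survival protein of blood cells that binds BH3 helices but whose copies are nearly identical. Over 519 coding bases, Bcl2a1b and Bcl2a1d differed at 6 positions, and each differed from the third expressed copy, Bcl2a1a, at 11 and 7 positions respectively. The first 90 coding bases (GENCODE M21) hold 6 of the 12 positions that vary among the copies, and are shown because reads can be assigned to a copy only across such bases, which are in capitals.
Bcl2a1a: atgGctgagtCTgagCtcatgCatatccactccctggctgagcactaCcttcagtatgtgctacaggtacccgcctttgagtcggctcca
Bcl2a1b: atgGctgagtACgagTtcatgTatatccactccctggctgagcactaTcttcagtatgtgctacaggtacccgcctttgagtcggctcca
Bcl2a1d: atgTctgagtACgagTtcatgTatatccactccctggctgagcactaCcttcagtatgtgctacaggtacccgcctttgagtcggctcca
Of the 50-base windows along their exons, 20.83% in Bcl2a1b and 20.52% in Bcl2a1d occurred in no other annotated transcript, and 43.18% and 45.29% of 100-base windows did. By contrast, 100% of the windows of Bcl2l1, Mcl1, Bbc3 and Pmaip1 were unique at both lengths. The levels of the single Bcl2a1 copies are therefore uncertain.

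Bcl2a1b (chr9:89199209-89207827, plus strand) was at 233, 416 and 626 in saline and at 479, 190.1 and 306 after bleomycin. The groups overlapped, with the highest value in saline replicate 3 and the lowest in bleomycin replicate 2. The means of 425 ± 196 and 325 ± 145 gave a difference of -0.37 ± 0.41 (95% interval -1.31 to 0.56, limma adjusted p = 0.649). Its exons also share 401 bases with Gm29094 on the same strand.

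Bcl2a1d (chr9:88723285-88731914, minus strand) was at 2644, 4868 and 4119 in saline and at 3908, 2548 and 2482 after bleomycin. Saline replicate 1 lay with the lower bleomycin libraries, and bleomycin replicate 1 with the saline libraries. The means were 3877 ± 1132 and 2979 ± 805, and the difference was -0.37 ± 0.25 (95% interval -0.94 to 0.20, limma adjusted p = 0.426). Summing the 4 annotated copies removes the split of assigned reads between them but does not restore shared reads if the counting left them out. The sum was 5157, 9360 and 8115 in saline and 7384, 5031 and 4848 after bleomycin. It differed by -0.37 ± 0.24 with a limma adjusted p of 0.396. No change of A1 was thus detectable in the assigned reads at this spread.

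Of the BH3-only genes, Bbc3 was called higher and Bcl2l11 and Pmaip1 were not. Bbc3 encodes Puma, a p53 target that binds all the survival proteins (chr7:16308393-16318205, plus strand). It was at 183, 199.9 and 244 in saline and at 464, 334 and 378 after bleomycin. The groups were separate, with bleomycin replicate 1 the highest. The mean went from 209 ± 31.3 to 392 ± 66.4, a difference of 0.90 ± 0.19 (95% interval 0.47 to 1.33) with a limma adjusted p of 0.015. It was called in 17 of 19 alternative settings, the exceptions being without bleomycin replicate 5 (adjusted p = 0.0613) and with bleomycin replicate 1 and saline replicate 2 both left out (0.0512).

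Bcl2l11 encodes Bim, which neutralizes every survival protein and activates Bax (chr2:128126038-128162547, plus strand). Its saline values were 3107, 2002 and 3259, and its bleomycin values 2957, 4205 and 3962. Bleomycin replicate 1 fell within the saline range, while replicates 2 and 5 were above it. The means were 2789.6 ± 686 and 3708 ± 661, and the difference was 0.43 ± 0.21 (95% interval -0.05 to 0.91, limma adjusted p = 0.25).

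Pmaip1 encodes Noxa, another p53 target, which binds Mcl1 and A1 (chr18:66458533-66465565, plus strand). It was at 1552, 1628 and 1788 in saline and at 1693, 1616 and 1627 after bleomycin, all bleomycin libraries lying within the saline range. The means were 1656 ± 120.4 and 1646 ± 41.6. The difference of -0.01 ± 0.11 had the narrowest interval among the members, -0.25 to 0.24, and a limma adjusted p of 0.982.

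The effectors did not pass the test. Bax (chr7:45461697-45466898, minus strand) was at 1836, 2156 and 2647 in saline and at 3183, 2066 and 2104 after bleomycin. Bleomycin replicate 1 was the highest library, and replicates 2 and 5 lay within the saline range. The means of 2213 ± 409 and 2451 ± 634 differed by 0.13 ± 0.20 (95% interval -0.32 to 0.59, limma adjusted p = 0.751). Its exons share 192 bases with Gm45808 on the same strand.

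Bak1, the effector held by Mcl1 and Bcl-xL (chr17:27019810-27029009, minus strand), was at 1921, 2369.6 and 2211 in saline. After bleomycin it was at 2216, 2135 and 2449.7, with overlapping groups. The means were 2167 ± 228 and 2267 ± 163, and the difference was 0.07 ± 0.12 (95% interval -0.21 to 0.34, limma adjusted p = 0.796). Its exons share 437 bases with Ggnbp1 on the opposite strand, whose own row held 13.7 to 50.5.

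Levels of different genes were compared per kilobase of annotated exon, since longer transcripts give more reads. In saline, Mcl1 stood highest at a mean of 7924 normalized counts per kilobase (6747 to 8731 over the libraries), and Bcl2 lowest at 1.47 (1.07 to 1.71). Bcl2a1d followed Mcl1 at 4492 (3063 to 5641), and these ranges did not meet. Next came Bax at 1404 (1165 to 1680), Bak1 at 900.4 (798 to 984) and Pmaip1 at 606 (568 to 654), none of whose ranges met. The full exon length was used, though most 50-base windows of Bcl2a1b and Bcl2a1d are shared with other genes. If reads in shared stretches were not counted, both levels are too low. Their places in the order, and that of Mcl1 above Bcl2a1d, are therefore uncertain. Bax and Bak1 have smaller shared parts, with 91.49% and 82.93% of 50-base windows unique. The length joins all annotated exons of a gene and can exceed that of the form expressed, so levels of different genes compare only roughly.

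Lower in the order, neighbours were not always separate. Bcl2a1b was at 520.3 per kilobase, with a range of 286 to 766 that covered that of Pmaip1. Bcl2l1 and Bcl2l11, at 348 and 347, lay within each other's spread (329 to 380 and 249 to 406). Bbc3 was at 98.4 per kilobase (86.3 to 115), below these and above Bcl2 without overlap.

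After bleomycin the order per kilobase was the same except that Bcl2a1b went from rank 6 to rank 8. Mcl1 was at 9733 (9553 to 9899), Bcl2a1d at 3452 (2876 to 4529), Bax at 1555 (1311 to 2019) and Bak1 at 942 (887 to 1018). Pmaip1 was at 602, Bcl2l1 at 524 (464 to 609), Bcl2l11 at 462 (368 to 524), Bcl2a1b at 398 (233 to 586) and Bbc3 at 185 (157 to 219). The ranges of Bcl2l1, Bcl2l11 and Bcl2a1b met one another, and so did those of Pmaip1 and Bcl2l1. Bcl2 remained the lowest member in every library, at 9.98 per kilobase (8.24 to 11.2).

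**Figure D3:**
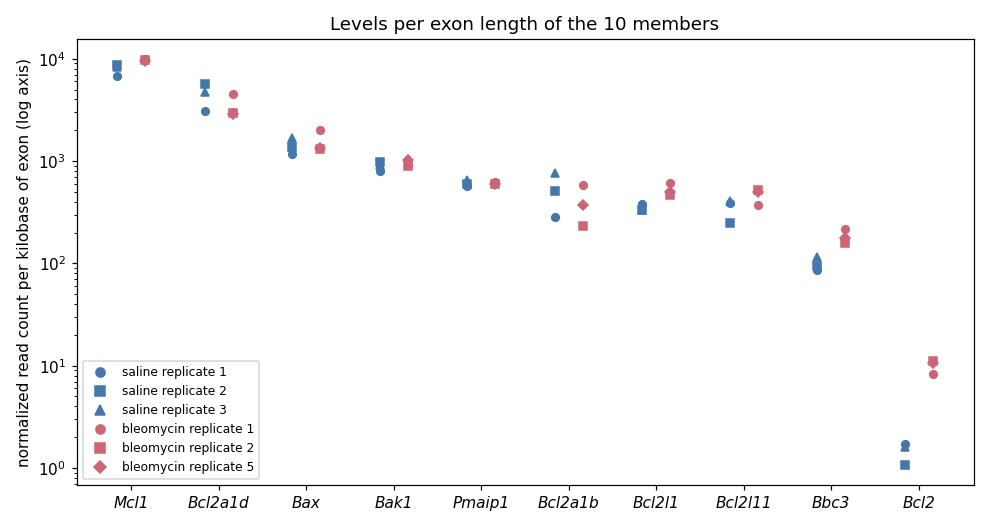
The normalized read count per kilobase of exon (log axis) is plotted for each of the 10 genes in the 6 libraries, ordered by the saline mean, with colours for treatment and shapes for replicate numbers. Mcl1 is highest and Bcl2 lowest in both groups, at 1.07 to 1.71 in saline and 8.24 to 11.2 after bleomycin. Levels of the Bcl2a1 copies may be too low, since their shared stretches were not corrected for.

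Per kilobase, Mcl1 made up 64.4%, 57.4% and 58.5% of the summed level of the 5 survival members in saline, and 63.3%, 72.7% and 71.8% after bleomycin. Bleomycin replicate 1 lay within the saline range on this measure. The sum leaves out Bcl2a1a, at a mean of 3957 per kilobase in saline and 2991 after bleomycin, which would lower the share of Mcl1. The Bcl2a1 copies in the sum may also be undercounted, so the share is not a measure of Mcl1 among all survival genes. The level of Mcl1 was 5743 ± 2188 times that of Bcl2 in saline and 994 ± 181 times after bleomycin. The ratio of Pmaip1 to Bbc3 was 6.58, 6.33 and 5.70 in saline and 2.84, 3.76 and 3.35 after bleomycin, with separate groups. With 3 libraries against 3, an exact two-sided permutation test of such a ratio cannot go below 0.10, so none was used.

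Markers of other cell types moved with treatment and are given beside Bcl2, which lymphocytes are known to express. T cell markers other than Cd2 (9 of 9 measured) summed to 28.2 to 41.2 in saline and to 230, 658 and 792 in bleomycin replicates 1, 2 and 5. Cd2 was left out after its values were seen, because it stood at 7042 to 15559 and fell after bleomycin, and with it the whole list summed to 12849 to 15596 and 7834 to 10940. The sum of the 9 T cell markers without Cd2 was thus higher in every bleomycin library, by different amounts, while the sum of the whole list was lower.

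B cell markers (6 of 6) summed to 16.3 to 20.6 in saline, where Pax5 was at 0, and to 84.4, 1045 and 684 after bleomycin. Natural killer cell markers (5 of 6 measured) went from 8.69 to 18.03 in saline, with Gzma and Nkg7 at 0, to 61.1 to 135. After bleomycin most of this sum was Klrd1, at 39.5, 54.9 and 87.1. Klrb1c overlapped between the groups, at 1.96 to 8.48 in saline and 6.59 to 10.3 after bleomycin. Gzma and Prf1 were at 0 in bleomycin replicate 1, and only 2 of these markers passed the filter on low values. Monocyte markers without Fn1 (6) went from 258 to 319 to 1661 to 3333, and with Fn1 (7 of 7) from 31524 to 57644 to 63778 to 145250. Dendritic cell markers (6 of 6) went from 285 to 631 to 989 to 2126, and neutrophil markers (6 of 8) from 2552 to 3860 to 5669 to 6596. Of 5 neutrophil markers tested, 3 were called higher (S100a8, Cxcr2 and Mmp8). S100a9 and Csf3r were not called. S100a9 was at 4.90, 503 and 7.42 in saline and at 20.7, 56.0 and 37.1 after bleomycin. Its saline mean of 172 thus rests on replicate 2, and its fitted log2 difference was 0.30. Csf3r had means of 1249 in saline and 1125 after bleomycin. Ly6g and Ngp were not measured.

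Within the bleomycin group, the highest library exceeded the lowest by a factor of 1.35 for Bcl2, compared with 3.44 for the T cell sum without Cd2, 12.4 for the B cell sum, 2.22 for the natural killer cell sum, 2.15 for the dendritic cell sum, 2.01 for the monocyte sum without Fn1 and 1.16 for the neutrophil sum. Bcl2 therefore varied less between these libraries than 5 of these sums and more than the neutrophil sum. Of the bleomycin libraries, replicate 1 was the lowest for Bcl2 and for each of these sums. With Cd2 kept, the factor of the T cell sum was 1.40, and replicate 1 was the highest. The part of other cells in the rise of Bcl2 was not tested. Of 6 epithelial markers, 3 were called higher (Sftpc, Krt8 and Krt18) and 1 lower (Epcam), and their sum, most of it Epcam in saline, was 5787 to 6927 in saline and 4253 to 4770 after bleomycin. Markers of dividing cells summed to 6352 to 7363 and 5167 to 6305, and fibroblast markers, with Lum at 0 in saline, to 35.3 to 321 and 219 to 849.

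**Figure D4:**
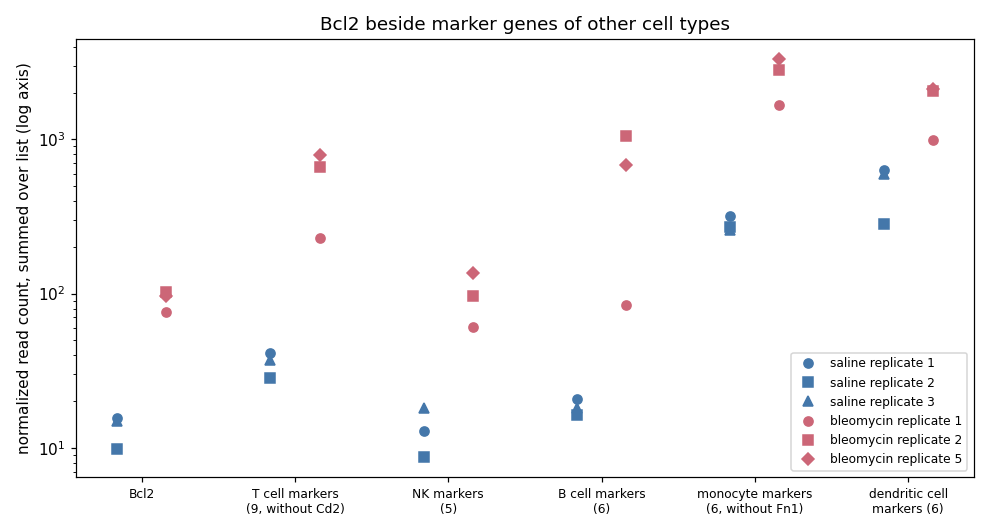
The normalized read count of Bcl2 and the summed counts of marker lists of T cells (without Cd2, which fell), natural killer, B, monocytic (without Fn1) and dendritic cells (log axis) are plotted for each library, with colours for treatment and shapes for replicate numbers. All sums as plotted are higher after bleomycin, and the bleomycin libraries spread by a factor of 1.35 for Bcl2 and 12.4 for the B cell markers.

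The genes whose profile over the 6 libraries lay nearest to that of Bcl2 were Igf1, a growth factor made by macrophages, at a Euclidean distance of 0.252 on the log2 scale, Itgb7, an integrin chain of leukocytes, at 0.296, and Rasgrp2, an exchange factor of platelets and lymphocytes, at 0.31. Igf1 went from a mean of 933 to 5491, a log2 difference of 2.58. Itgb7 and Rasgrp2 differed by 2.70 and 2.79. Nearest to Bcl2a1d were Alyref2 at 0.099, Bcl2a1a at 0.173 and Rrp15 at 0.207, none of which was called.

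Outside the 10 members, 14 further family genes were listed, of which 13 were measured and 9 tested, with 1 higher and 0 lower. Beside the calls in this and the following lists, 13.7% of all tested genes were called. Bcl2l14 (Bcl-G), whose role in cell death is disputed, was the gene that rose. It was at 0, 0 and 1.06 in saline and at 10.8, 72.5 and 71.5 after bleomycin, with replicate 1 the lowest of its group. It had 1 read in saline and 161 after bleomycin, a ratio of 146 whose 95% interval for counting error was 25.8 to 5790, and its limma adjusted p was 0.00473. The bleomycin libraries differed by a factor of 6.73 in this gene. Only they reached the minimum value of 10 in 3 libraries, replicate 1 narrowly, so entry to the test rested on the bleomycin group. At the minimum of 50 the gene was not tested.

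Bid, the BH3 protein that caspase 8 cleaves, was at 247, 340.1 and 242 in saline and at 439, 419 and 382 after bleomycin. The groups were separate, but the difference of 0.59 ± 0.18 had a limma adjusted p of 0.0634. It was called in 3 of 19 alternative settings, by DESeq2 (adjusted p = 0.0288), without saline replicate 2 (0.0243) and with bleomycin replicate 1 left out as well (0.0289). Its exons share 628 bases with Bcl2l13 on the opposite strand. Bcl2l12 differed by -0.53 ± 0.24 (limma adjusted p = 0.211), and Bcl2a1a, at 2279, 4074 and 3368 in saline and 2997, 2292 and 2060.1 after bleomycin, by -0.38 ± 0.22 (limma adjusted p = 0.342).

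Downstream of the pore, 13 genes for cytochrome c, Apaf1, caspases and DNA fragmentation were tested, and 0 were called by limma in either direction. At an unadjusted p under 0.05 there were 5 of 13, beside 25.9% of all tested genes. The groups did not overlap in 6 of 13, beside 30.8%, and the median difference was -0.02. Casp6, an effector caspase, differed by 0.49 ± 0.15 (limma adjusted p = 0.0638). DESeq2 on the recovered reads called Casp6 (adjusted p = 0.0322).

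Of the 4 tested inhibitors of apoptosis, 1 was higher and 0 lower. Birc3 (cIAP2), a ubiquitin ligase of tumour necrosis factor signalling, was at 1956, 1981 and 1928 in saline and at 2716, 3613 and 3308 after bleomycin. The saline libraries were nearly equal and every bleomycin library was above them. The difference was 0.71 ± 0.13, or 1.63-fold, with a limma adjusted p of 0.00739 (0.158 with the replicate block). Birc2, Xiap and Birc6 differed by 0.20, 0.11 and -0.10 and did not pass the test.

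Of 8 death receptor pathway genes, 1 was higher and 0 lower. Cflar (c-FLIP), which restrains caspase 8, was at 2877, 3825 and 3939 in saline and at 4585, 5722 and 5271 after bleomycin, with separate groups. Its difference of 0.56 ± 0.15 had a limma adjusted p of 0.0422 and was called in 11 of 19 alternative settings. Its adjusted p with each library left out ranged from 0.0282 to 0.169, edgeR on the recovered reads gave 0.0508, and with the replicate block it was 0.188. Among the other 7, Tnfrsf10b, a receptor for Trail, differed by 1.05 ± 0.45 with a limma adjusted p of 0.186.

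Neither the 6 mitochondrial partners nor the 5 genes that control turnover of these proteins had a member called by limma. An unadjusted p under 0.05 was found in 0 and 1 of them respectively, beside 25.9% of all tested genes. Vdac1, a mitochondrial pore protein, differed by -0.22, and Fbxw7, part of a ubiquitin ligase for Mcl1, by 0.32 ± 0.14 (limma adjusted p = 0.191).

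Among 10 listed transcription factors that act on family genes, 9 were tested, with 1 higher and 1 lower. Foxo3, an activator of Bcl2l11 and Bbc3, was at 1050.2, 1467 and 889.8 in saline and at 1644, 1703 and 2045 after bleomycin. E2f1, a cell cycle factor that can also induce BH3-only genes, was at 1724, 2157 and 2045 in saline and at 1582, 1295 and 1308 after bleomycin. Neither set of groups overlapped. Foxo3 differed by 0.69 ± 0.19 (limma adjusted p = 0.0459) and E2f1 by -0.50 ± 0.14 (limma adjusted p = 0.0434).

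Both calls lay close to the threshold, Foxo3 being called in 10 of 19 alternative settings and E2f1 in 12. With each library left out in turn, the adjusted p ranged from 0.0106 to 0.179 for Foxo3 and from 0.0203 to 0.178 for E2f1, and with the replicate block it was 0.563 and 0.566. Trp53, which encodes p53, differed by -0.21 (limma adjusted p = 0.385). Over all 7 lists, 54 genes were tested, with 4 higher and 1 lower (9.26% called, beside 13.7% of all tested genes) and a median difference of -0.025.

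Promoter windows of the 3 members that rose are shown because these are the members called higher. Within the bleomycin group they did not vary alike, since replicate 1 was the lowest for Bcl2 and the highest for Bcl2l1 and Bbc3. Each is a window of 300 bases over an annotated start, most of it upstream, from RefSeq on GRCm38.p6, and capitals mark motif matches. Of 10 members, 9 had windows used here. Bcl2l1 and Bbc3 have 3 windows each, and the one printed was picked for its NF-kB match. The other 2 Bcl2l1 windows matched no motif, and of the other 2 Bbc3 windows 1 matched FOXO and 1 none.
Bcl2, chr1:106714241-106714540, minus strand: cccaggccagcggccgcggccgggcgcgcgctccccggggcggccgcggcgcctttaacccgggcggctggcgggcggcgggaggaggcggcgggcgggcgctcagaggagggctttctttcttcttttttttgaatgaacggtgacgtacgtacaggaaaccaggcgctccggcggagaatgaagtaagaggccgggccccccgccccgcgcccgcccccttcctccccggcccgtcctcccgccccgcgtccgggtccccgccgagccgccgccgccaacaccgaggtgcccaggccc
Bcl2l1, chr2:152830668-152830967, minus strand: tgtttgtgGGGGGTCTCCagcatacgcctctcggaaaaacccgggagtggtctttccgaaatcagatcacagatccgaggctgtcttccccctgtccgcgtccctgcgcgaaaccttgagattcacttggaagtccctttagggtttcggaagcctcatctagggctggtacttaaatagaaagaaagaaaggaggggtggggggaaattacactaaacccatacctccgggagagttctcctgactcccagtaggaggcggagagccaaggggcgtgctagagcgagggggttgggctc
Bbc3, chr7:16309333-16309632, plus strand: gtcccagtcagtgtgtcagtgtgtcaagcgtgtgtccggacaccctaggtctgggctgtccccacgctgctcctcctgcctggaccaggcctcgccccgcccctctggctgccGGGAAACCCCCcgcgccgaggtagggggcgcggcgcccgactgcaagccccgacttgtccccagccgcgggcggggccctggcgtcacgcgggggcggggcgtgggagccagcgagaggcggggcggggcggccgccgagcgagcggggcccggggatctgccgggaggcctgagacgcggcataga
The NF-kB match begins at base 9 of the Bcl2l1 window, counted from 1 at the 5′ end, and the Bbc3 window holds a pair of overlapping matches, printed as a single run of capitals. The Bcl2 window matched none of the 6 motifs searched on both strands.

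Those motifs were STAT (TTCNNNGAA), AP-1 (TGANTCA), FOXO (TGTTTAC), CRE (TGACGTCA), NF-kB and the p53 decamer, and they matched 8.30%, 7.81%, 3.65%, 1.79%, 4.51% and 8.36% of 32851 windows of all genes, a share per window and not per gene with several windows. AP-1 letters were also found in the windows of Bcl2a1a, Bcl2a1b and Bcl2a1d, FOXO letters in 1 window each of Bbc3 and Bcl2l11, and p53 letters in that of Bax. The AP-1 match began at base 131, 87 and 137 in Bcl2a1a, Bcl2a1b and Bcl2a1d. A match is a run of letters and not a measured binding site.

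**Figure D5:**
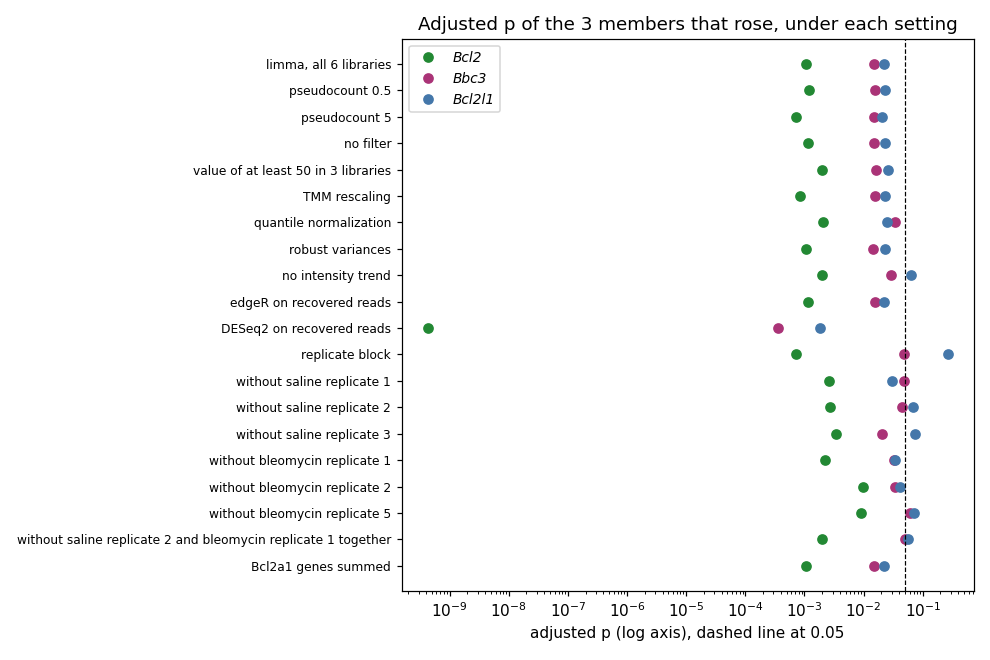
The adjusted p (log axis, dashed line at 0.05) of Bcl2, Bbc3 and Bcl2l1 is plotted for the limma test on all 6 libraries and for each alternative setting. Bcl2 stays left of the line throughout, at 0.00981 or less, while Bbc3 crosses it in 2 settings and Bcl2l1 in 6.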

How the data were processed

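Total RNA from adherent lavage cells was sequenced, per the labels' protocols. The submitters' processing notes name DESeq2, HTSeq 0.6.0, STAR 2.5.2b and bcl2fastq 2.18.0.12, and build mm10. The sources used here do not give their roles, the annotation release, read length, strand setting or filters. As deposited, the table holds a normalized signal per gene and library. Dividing by the value of 1 read gave whole reads for 100% of values above 0 in each library (within 0.05), and the signal is thus a read count scaled by a single factor for each library. A symbol and GENCODE M21 position matched 22873 of 22962 identifiers.

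The 13512 genes that reached a value of 10 in 3 or more libraries entered a limma test (version 3.58.1, R 4.3.3) of log2(value + 1), with an intensity trend, two-sided and with Benjamini-Hochberg adjustment over all genes tested. Folds on this scale understate changes of low genes, and the interval of a ratio of reads covers counting error only. On the recovered reads edgeR 4.0.16 called 1821 genes and DESeq2 1.42.0 called 2313. Tested on simulated counts for this comparison (13243 genes, 200 changed), the test found 86.7% of the 2-fold and 99% of the 4-fold changes, and 3.2% of calls were false. Every simulated gene had the same dispersion of 0.03, which was not estimated from these libraries. These rates may therefore not hold here, least of all for genes that vary more. No change smaller than 2-fold was simulated.

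The members and lists were chosen with earlier results of these data known. Named genes were all members, the 4 of each other list with the smallest p, called family genes, and the 3 profiles nearest to the member with the smallest p in each direction. Egr1, Marco, Siglecf and single markers were named after their values were seen, and named genes that add nothing to a list's account stand only in its counts. Some listed genes are not reported here. The 19 alternative settings, counted without the main test, are a pseudocount of 0.5 or 5, a minimum of 50 or none, TMM, quantile normalization, robust variances, no trend, edgeR, DESeq2, a replicate block, the Bcl2a1 copies summed, each library left out, and saline replicate 2 with bleomycin replicate 1 left out together, the last chosen after seeing the data. Summing the Bcl2a1 copies leaves the values of all other genes unchanged, so for those genes it is not a separate check. Positions and sequences came from GENCODE M21 and RefSeq, motifs were searched with Biopython 1.88, and a window counted as unique if its letters occurred in no transcript of another gene.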

Additional observations from a re-analysis of the deposited data

How the results depend on the processing

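Across the 6 fits that left out 1 library, genes called higher numbered 768 to 1457 (1319 with all libraries) and lower 183 to 624 (527). Members called higher numbered 1 to 3 and lower 0 in each, related genes higher 2 to 4 and lower 0 to 2. Bcl2 was the member called in every setting. Without bleomycin replicate 5, or without saline replicate 2 and bleomycin replicate 1 together, 1 member was called. The count of members was 2 with no trend, with the replicate block, and without saline replicate 2 or 3. Related genes higher (4) became 2 at a minimum of 50, with no trend and with edgeR, 1 with the replicate block, 6 with DESeq2 and 7 without the pair of libraries. Related genes lower (1) became 0 with TMM and with no trend. All genes lower became 194 with the replicate block, and all genes higher 902 at a minimum of 50. The cause of these moves was not tested, apart from fewer libraries or genes by construction.

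Signs of differences near 0 turned in some settings. Bax was -0.08 without the pair of libraries and -0.07 to 0.27 leaving out 1, Bak1 -0.016 to 0.135, and Pmaip1 0.013 with TMM, 0.058 with the block and -0.052 to 0.050 leaving out 1. With the block Xiap was -0.103, Bnip3l 0.004, Vdac3 0.099 and Gsk3b -0.062. Birc6 was 0.046 without the pair. Leaving out 1 library gave -0.22 to 0.12 for Birc6, -0.164 to 0.041 for Vdac3 and -0.063 to 0.175 for Gsk3b. None of these was called.

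Replicate numbers 1 and 2 occur in both groups, and deviations of same-numbered libraries correlated at -0.201 and 0.024, so the numbers were not taken to pair the samples. The block left members higher at 2. Bcl2 in saline rests on 9 to 16 reads per library, which limits its fold.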
